A study of Mus musculus with 10 samples.

Results

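The genes described here encode the antigens by which mouse skeletal stem cells are sorted, together with genes that mark subsets of these cells or the cells around them. They are the 10 rows of the table whose symbol is Itgav, Cd200, Pdgfra, Pdgfrb, Ly6a, Thy1, Eng, Mcam, Nes or Ctsk, out of 15078 genes, and they were chosen by name. RNA was sequenced from 10 libraries of sorted mouse cells, to ask how periosteum-derived stromal cells of a transplanted bone compare with those of bones that were left in place. All cells were negative for the blood and vessel antigens CD45, Ter119 and CD31 and positive for CD51 and CD200. Graft BM-MSCs (n = 4) were such cells that were also Tomato+, from the marrow of femurs of Postn Cre-ER;tdTomato mice at 5 months after the femurs were placed under the skin of wild-type recipients treated with tamoxifen. BM-MSCs (n = 3) came from the marrow, and P-SSCs (n = 3) from the periosteum (the outer sheath of a bone) of mice at steady state, and the labels call both of these groups host. Strain and treatment of these mice are not stated for the sequencing. A figure legend of the study names wild-type mice for steady-state cells of the same gate. The study's methods give an age of 6 to 12 weeks for mice in general, without one for the graft cells at sampling, and list the Postn Cre-ER line on a B6.129 background, apart from the C57BL/6 mice. The Postn driver labels cells that used the periostin gene at the time of tamoxifen, and osteoblasts and fibroblasts can use it too. Blood cells of the graft come from the recipient. RNA of 2 mice was combined in the libraries numbered 2+4 and 2+5.

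Skeletal stem cells have no single defining antigen and are sorted by combinations of surface proteins. CD51 is the alpha v chain of integrins and CD200 is a membrane glycoprotein that restrains myeloid cells. PDGF receptor alpha and Sca-1 have been used together to sort mesenchymal stem cells, while CD90 and endoglin (CD105) separate stages of skeletal progenitors in the CD51+CD200+ scheme. CD146 and nestin mark cells next to vessels, and cathepsin K, best known as the bone-resorbing protease of osteoclasts, also marks periosteal stem cells.

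The libraries held 15415421 to 25223295 reads over the genes of the table, and a value is the number of reads after scaling by the library's size factor, called a normalized read count below. Values of 3 reads, taken as the smallest detectable amount, lay between 1.69 and 3.82. This limit covers counting error only. Genes of marrow stroma and of periosteum differed between the groups by the tissue that the labels name. Hematopoietic and red cell RNA was also present, and its values are given below. The summed count of 4 marrow stroma genes (Lepr, Cxcl12, Adipoq, Kitl) was 663311 to 812775 in graft BM-MSCs and 830214 to 1130910 in BM-MSCs, against 4505 to 8842 in P-SSCs, whereas that of 3 periosteal genes (Postn, Fmod, Fn1) was 174037 to 261108 in P-SSCs and at most 12251 in the others. Cxcl12 made up most of the marrow stroma sum, at 560618 to 736781 in graft BM-MSCs and 743661 to 995477 in BM-MSCs. The study names Postn, Fmod and Fn1 from these same data, so that these sums only describe the groups. Libraries differed in how they recovered GC-rich transcripts. Genes with over 65% GC were higher than those with 50% to 60% GC, relative to the mean of all libraries, by 1.52 to 2.80 on the log2 scale in all 4 graft libraries and in P-SSC 4, and lower by at least 1.51 in the other 5 libraries. Whether this came from preparation is not stated, and for graft BM-MSCs against BM-MSCs this split and the groups cannot be told apart. A fit with a term for the split compares the graft with P-SSC 4 alone, so that its graft differences rest on that 1 library. By the study's methods each replicate held RNA of distinct mice.

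The promoters of 3 members that were lower in graft BM-MSCs than in P-SSCs are shown because the table of RefSeq promoters holds them and the RNA of these genes fell together. Each window is the 250 bases before the RefSeq start on GRCm38.p6, 5′ to 3′ on the strand of the gene, and capitals mark GGGCGG or its reverse complement, the GC box that the factor Sp1 binds.
Pdgfra, chr5:75152001-75152250, plus strand: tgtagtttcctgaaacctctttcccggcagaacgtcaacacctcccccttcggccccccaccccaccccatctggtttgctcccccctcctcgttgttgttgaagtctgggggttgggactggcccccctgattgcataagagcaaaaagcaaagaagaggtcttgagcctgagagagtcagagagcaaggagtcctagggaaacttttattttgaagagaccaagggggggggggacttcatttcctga
Eng, chr2:32646345-32646594, plus strand: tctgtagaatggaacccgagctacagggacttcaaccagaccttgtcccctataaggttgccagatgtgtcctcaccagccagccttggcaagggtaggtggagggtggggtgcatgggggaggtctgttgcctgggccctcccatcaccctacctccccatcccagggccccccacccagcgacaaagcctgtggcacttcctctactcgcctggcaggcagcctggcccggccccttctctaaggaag
Mcam, chr9:44134408-44134657, plus strand: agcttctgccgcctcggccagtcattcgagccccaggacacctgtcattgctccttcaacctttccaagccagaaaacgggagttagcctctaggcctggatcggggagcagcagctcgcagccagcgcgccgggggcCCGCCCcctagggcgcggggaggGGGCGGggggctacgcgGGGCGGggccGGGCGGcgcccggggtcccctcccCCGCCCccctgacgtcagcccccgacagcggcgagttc

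The windows differed in composition. That of Mcam had 73.6% GC, 25 CpG dinucleotides and 5 matches to the GC box over both strands, while those of Pdgfra (54.4% GC) and Eng (62.4% GC) had 4 CpG dinucleotides each and no match. The median over 32817 RefSeq promoters was 52.4% GC with 6 CpG dinucleotides, and 32.7% of them held the GC box. Cd200 had 1 match and Nes had 2, and the windows of Itgav and Ctsk had none. TATAAA (in 12.4% of all promoters) and CCAAT (in 33.8%), searched on both strands, were in none of the 7 members' windows read. Entries for Ly6a, Thy1 and Pdgfrb were not used here.

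Across the 3 comparisons the 10 genes did not move as a group. In graft BM-MSCs against P-SSCs, 6 of 10 passed the test (limma on log2(value + 1), adjusted p under 0.05 over all genes), with Pdgfrb higher and Pdgfra, Ly6a, Thy1, Eng and Mcam lower, where 18.1% of the 13644 genes tested were called (6.08% higher, 12% lower). In graft BM-MSCs against BM-MSCs, 3 of 10 passed, with Ly6a higher and Pdgfrb and Eng lower (7.67% of all genes, 2.61% higher and 5.06% lower). In P-SSCs against BM-MSCs, 2 of 10 passed, with Ly6a higher and Pdgfrb lower (9.15% of all genes, 4.57% higher and 4.58% lower). Scaling changed the split of the calls. In the first comparison it was 2 higher and 5 lower under quantile normalization and 2 higher and 4 lower under a correction for GC content, and in the second 1 each way and 1 higher alone. The median log2 difference of the members was -1.76, -0.35 and 0.80 in these comparisons, and that of all genes tested was -0.47, -0.53 and 0.00. Groups did not overlap for 6, 4 and 5 of the 10 genes, which was the case for 26.6%, 25% and 30.9% of all genes. The comparisons share libraries and are not independent of each other.

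**Figure D1:**
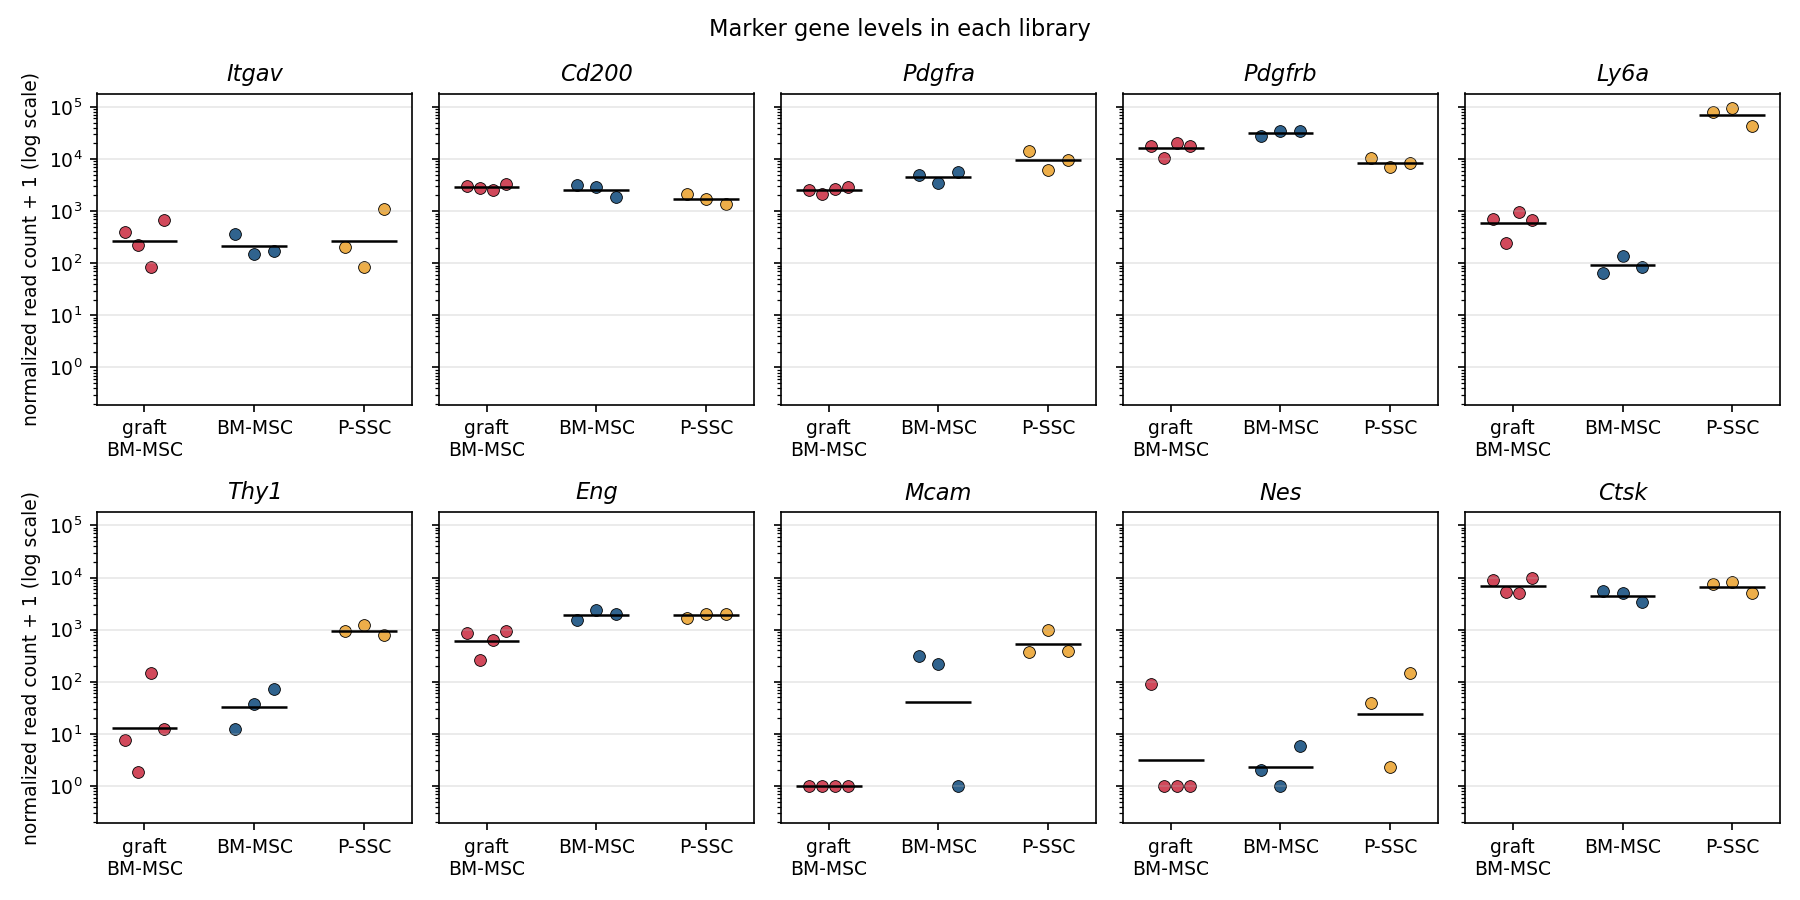
Normalized read count + 1 of each gene in each of the 10 libraries, on a log scale that all panels share. Points are libraries, coloured by group, and lines are means of the log values. Ly6a spans the widest distance between groups, from 63.7 in BM-MSC 1 to 96853 in P-SSC 2+5, while Cd200 and Ctsk stay within a narrow band.

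Cd200 and Itgav encode the antigens of the gate, by which the cells of all 3 groups were sorted. Cd200 (chromosome 16, 45382135-45409053, minus strand, GENCODE M21 on GRCm38, as for the other positions) was at 3052, 2732, 2490 and 3277 in graft BM-MSCs 1 to 4, at 3144, 2875 and 1886 in BM-MSC 1, 2+4 and 3, and at 2088, 1697 and 1372 in P-SSC 1, 2+5 and 4. Every graft library was above every P-SSC library, while graft BM-MSCs and BM-MSCs overlapped. The difference between graft BM-MSCs and P-SSCs was 0.76 ± 0.25 on the log2 scale (SE; limma, adjusted p = 0.0629). This value missed the threshold and passed it under the GC correction at 1.153 (limma, adjusted p = 0.0488), under quantile normalization, with a stricter filter (mean 100 or more), and with DESeq2. The other differences were 0.16 (95% interval -0.41 to 0.72) for graft BM-MSCs against BM-MSCs and -0.60 for P-SSCs against BM-MSCs (limma, adjusted p = 0.722 and 0.267).

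Itgav (chromosome 2, 83724397-83806916, plus strand) varied widely within groups. Its counts were 398, 218, 82.6 and 684 in graft BM-MSCs 1 to 4, 363, 147 and 173 in BM-MSCs, and 207, 84.1 and 1095 in P-SSCs, in the same order of libraries. The highest P-SSC library was 13.0 times the lowest, and the highest graft library 8.29 times the lowest, so that all 3 groups overlapped. No difference passed the test, and the intervals were wide (-2.14 to 2.11 on the log2 scale for graft BM-MSCs against P-SSCs). Without P-SSC 4 that difference moved from -0.01 to 1.00 and the one of P-SSCs against BM-MSCs from 0.35 to -0.66, still without a call. Of the 50-base stretches in Itgav transcripts, 5.40% also occur in Gm13684, which was not analysed here.

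The integrin beta chains that pair with alpha v were read beside it. Itgb5 was at 4581, 3761, 4199 and 5833 in graft BM-MSCs, at 832, 936 and 534 in BM-MSCs, and at 1457, 1641 and 4423 in P-SSCs. All graft libraries were above all BM-MSC libraries, and P-SSC 4 lay with the graft. Itgb5 rose by 2.6 ± 0.39 in graft BM-MSCs against BM-MSCs (limma, adjusted p = 0.00456) and was 1.55 ± 0.42 higher in P-SSCs than in BM-MSCs (limma, adjusted p = 0.0435). The latter call was lost without P-SSC 4 (1.05), without P-SSC 2+5 (1.76) or without any one BM-MSC library (1.31 to 1.72; limma, adjusted p = 0.0535 to 0.171 over these 5), and with edgeR at 1.63 (adjusted p = 0.0786). Itgb6 had no read in any of the 7 marrow libraries and 39.5, 57.3 and 16.5 in P-SSCs, which puts its mean in P-SSCs at least 12.5-fold above the limit of detection in graft BM-MSCs. Itgb1, Itgb3 and Itgb8 did not pass the test in any comparison. Itgb1 was between 1121 (P-SSC 2+5) and 8316 (graft BM-MSC 4).

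The PDGF receptors bind growth factors that drive division and migration of mesenchymal cells, with the alpha receptor the classical marker of fibroblastic progenitors and the beta receptor of pericytes. Pdgfra (chromosome 5, 75152292-75198215, plus strand) was at 2576, 2161, 2689 and 2865 in graft BM-MSCs, at 4935, 3487 and 5733 in BM-MSCs, and at 14223, 6193 and 9474 in P-SSCs. The groups were ordered without overlap, lowest in graft BM-MSCs and highest in P-SSCs. Pdgfra fell by 1.88 on the log2 scale (SE 0.29) in graft BM-MSCs against P-SSCs, a 3.87-fold difference of means (limma, adjusted p = 0.00123), and this call held under every alternative run. The differences of -0.85 ± 0.29 between graft BM-MSCs and BM-MSCs and 1.03 ± 0.31 between P-SSCs and BM-MSCs did not pass (limma, adjusted p = 0.105 and 0.0700). The latter passed without P-SSC 2+5, at 1.33 (limma, adjusted p = 0.0191), and with DESeq2 at 1.09 (adjusted p = 0.0223). The former passed when these groups were fitted alone (limma, adjusted p = 0.0428) and was -0.27 under the GC correction (limma, adjusted p = 0.679).

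Pdgfrb (chromosome 18, 61045150-61085061, plus strand) ran the other way between the steady-state groups. It was at 17728, 10490, 19875 and 17611 in graft BM-MSCs, at 27988, 34403 and 33763 in BM-MSCs, and at 10675, 6981 and 8402 in P-SSCs. Both marrow groups stood apart from each other, and 3 of 4 graft libraries lay between BM-MSCs and P-SSCs, while graft BM-MSC 2 was just under P-SSC 1. P-SSCs were 3.69-fold below BM-MSCs, a log2 difference of -1.90 ± 0.26 (limma, adjusted p = 0.000754). In graft BM-MSCs Pdgfrb was higher than in P-SSCs by 0.90 ± 0.24 and lower than in BM-MSCs by 1.95-fold, or -1.0 ± 0.24 (limma, adjusted p = 0.0258 and 0.0323).

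Both graft calls of Pdgfrb were close to the threshold. That against P-SSCs was lost without graft BM-MSC 1, 3 or 4, or without P-SSC 2+5 or 4, with log2 differences of 0.75 to 0.89 (limma, adjusted p = 0.0537 to 0.109). That against BM-MSCs was lost without graft BM-MSC 1 or any one BM-MSC library, at -1.09 to -0.94 (limma, adjusted p = 0.0512 to 0.127), and with edgeR. The GC correction moved both differences upwards, that against P-SSCs to 1.64 (limma, adjusted p = 0.00110) and that against BM-MSCs to -0.30 (limma, adjusted p = 0.543).

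The balance of both receptors within a library separated periosteal from marrow cells. The log2 ratio of Pdgfra over Pdgfrb was -2.78, -2.28, -2.89 and -2.62 in graft BM-MSCs, -2.50, -3.30 and -2.56 in BM-MSCs, and 0.41, -0.17 and 0.17 in P-SSCs. Graft BM-MSCs and BM-MSCs overlapped, and all 7 marrow libraries were below all 3 P-SSC libraries. Graft BM-MSCs averaged -2.64 ± 0.27 (SD, n = 4), BM-MSCs -2.79 ± 0.45 (n = 3) and P-SSCs 0.14 ± 0.29 (n = 3). The difference of -2.78 between graft BM-MSCs and P-SSCs had p = 0.0571 in a two-sided exact permutation test, the smallest that its 35 arrangements allow, and 0.30 after adjustment over 6 ratio tests. P-SSCs and BM-MSCs differed by 2.93 (exact permutation p = 0.10, the smallest of 20 arrangements, adjusted 0.30). Graft BM-MSCs and BM-MSCs differed by 0.15 (exact permutation p = 0.629, adjusted 0.840). Itgav over Cd200 gave no such separation, with means of -3.43 ± 1.13, -3.61 ± 0.61 and -2.66 ± 2.08 (SD) in graft BM-MSCs, BM-MSCs and P-SSCs, and its 3 differences had exact permutation p-values of 0.571 to 0.857 (adjusted 0.840 to 0.857).

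**Figure D2:**
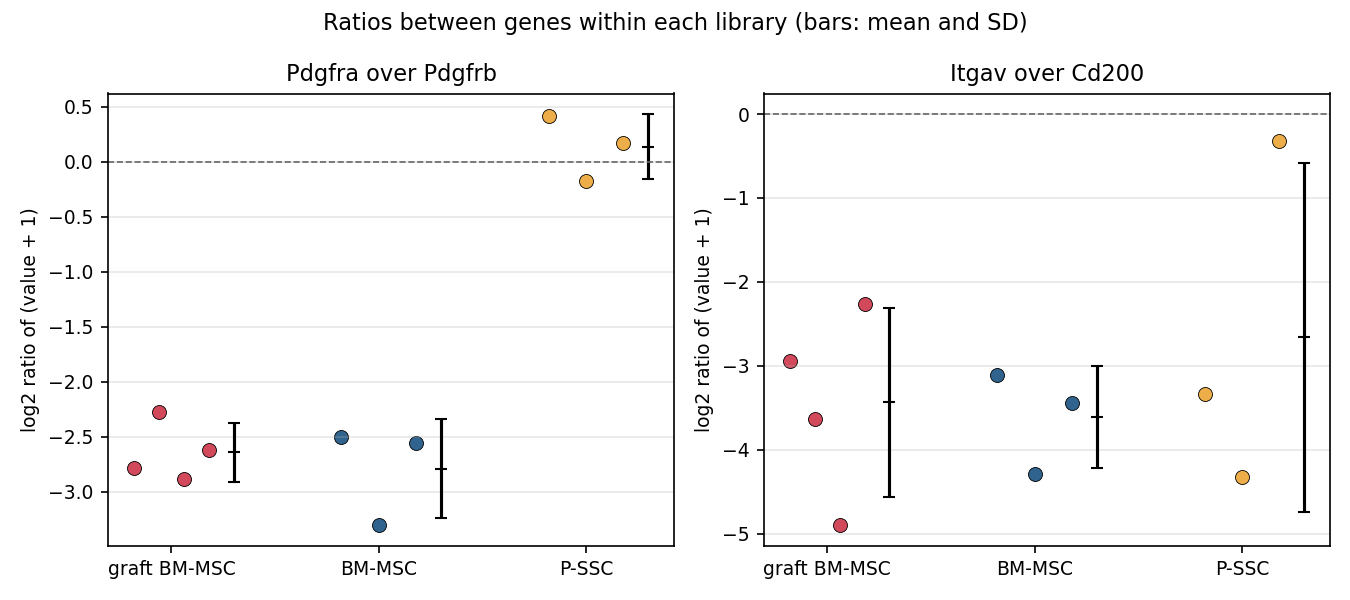
Log2 ratio of (value + 1) between 2 genes of the same library, for Pdgfra over Pdgfrb (left) and Itgav over Cd200 (right), where points are the 10 libraries and bars the mean and SD of each group. On the left the 3 P-SSC libraries lie near 0 and the 7 marrow libraries between -3.30 and -2.28, and on the right the groups overlap, with P-SSC 4 highest at -0.32.

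Among the PDGF ligands, Pdgfa, which activates the alpha receptor, was at 1221, 638, 759 and 1222 in graft BM-MSCs, at 420, 259 and 405 in BM-MSCs, and at 77.9, 87.9 and 521 in P-SSCs. It was higher in graft BM-MSCs than in P-SSCs by 2.58 ± 0.66 (limma, adjusted p = 0.0208), with all graft libraries above all P-SSC libraries. The call was lost without P-SSC 1 or 2+5, at 2.10 and 2.19 (limma, adjusted p = 0.0955 and 0.0863), and with edgeR. Pdgfc, another ligand of this receptor, was at 0, 0, 14.1 and 193 in graft BM-MSCs and at 641, 662 and 1015 in P-SSCs. Its log2 difference was -6.68 ± 1.71 (limma, adjusted p = 0.0214), and BM-MSCs were in between at 72.1, 139 and 128. This call was lost without any one P-SSC library, at -6.80 to -6.47 (limma, adjusted p = 0.0600 to 0.0789), and with edgeR at -3.80 (adjusted p = 0.205). Pdgfd did not pass in any comparison, and Pdgfb was under the filter on low values.

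Ly6a, which encodes the small membrane protein Sca-1, separated the 3 groups most. Ly6a (chromosome 15, 74994877-74998031, minus strand) was at 699, 247, 980 and 682 in graft BM-MSCs, at 63.7, 139 and 83.8 in BM-MSCs, and at 81368, 96853 and 43887 in P-SSCs. The groups did not overlap, and graft BM-MSCs stood between the steady-state groups, much nearer to BM-MSCs. Against P-SSCs the graft was 114-fold lower, a log2 difference of -6.91 ± 0.49 (limma, adjusted p = 1.68e-05). Against BM-MSCs it was 6.82-fold higher, or 2.67 ± 0.49 (limma, adjusted p = 0.0110). P-SSCs exceeded BM-MSCs by 775-fold, or 9.58 ± 0.53 (limma, adjusted p = 3.08e-06).

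The calls of Ly6a against P-SSCs held under every alternative run, in both comparisons. That of graft BM-MSCs against BM-MSCs held with each library left out in turn, at 2.42 to 3.08, and with the GC correction at 3.26 (limma, adjusted p = 0.00524). It missed with an adjusted p under 0.01, and with a term for the GC split at 3.69 (limma, adjusted p = 0.163). Ly6a belongs to a gene cluster of close relatives, and 19.0% of its 50-base stretches also occur in Ly6c1, Ly6c2, Ly6i or I830127L07Rik. Of these, Ly6c1 was at 42637, 54121 and 24478 in P-SSCs and at most 117 in the marrow libraries. Ly6c2, which monocytes use, ran the opposite way, at 0 to 1232 in graft BM-MSCs, 514 to 939 in BM-MSCs and at most 3.82 in P-SSCs. How the authors' counting assigned reads shared by these genes is not stated, so the level of Ly6a is uncertain to that extent.

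Thy1 encodes CD90, an anchored surface protein of fibroblasts, neurons and T cells. Thy1 (chromosome 9, 44043384-44048579, plus strand) was at 928, 1215 and 777 in P-SSCs, at 11.5, 36.9 and 71.0 in BM-MSCs, and at 6.78, 0.84, 148 and 11.2 in graft BM-MSCs. All 7 marrow libraries were under all P-SSC libraries, and graft BM-MSC 3 was above every BM-MSC library while graft BM-MSC 2 was at 1 read. Thy1 fell by 6.24 on the log2 scale (SE 1.42) in graft BM-MSCs against P-SSCs, or 23.3-fold between means (limma, adjusted p = 0.0121). The call missed without P-SSC 1 or without P-SSC 2+5 (log2 difference -6.26 and -6.06; limma, adjusted p = 0.0570 and 0.0599) and with edgeR at -4.46 (adjusted p = 0.0651). P-SSCs were 24.5-fold above BM-MSCs, or 4.88 ± 1.52, which missed the threshold (limma, adjusted p = 0.0792) but passed among the 5 libraries in which GC-rich genes were low, at 5.03 (limma, adjusted p = 0.0221).

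Genes of T cells, which use Thy1, and of hematopoietic cells were read beside it. The summed count of the T cell genes Cd3g and Lck was at most 55.2 in any library and 3.02 in graft BM-MSC 3, and both were at 0 in P-SSC 2+5 and P-SSC 4. The sum of 6 hematopoietic genes was 209 to 4850 in graft BM-MSCs, with graft BM-MSC 3 the highest. It was 2685 to 4472 in BM-MSCs and 12.6 to 177 in P-SSCs. Within the graft, Thy1 and these genes were highest in the same library, and the part of the latter in that value was not tested. In graft BM-MSC 3 Ptprc, the gene of CD45, was at 196, against at most 2.59 in the other graft libraries. Without graft BM-MSC 3, 5 of the 10 genes were called against P-SSCs and 2 against BM-MSCs. Of the 13644 genes tested, 2377 and 966 were then called. With all libraries it was 6 and 3 of the 10 genes, and 2464 and 1046 of all genes.

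Eng encodes endoglin, a co-receptor for ligands of the TGF-beta family. Eng (chromosome 2, 32646595-32682669, plus strand) was at 843, 262, 630 and 935 in graft BM-MSCs, at 1532, 2432 and 1954 in BM-MSCs, and at 1681, 2014 and 1955 in P-SSCs. Every graft library was under every steady-state library, and the P-SSC libraries lay within the range of the BM-MSC libraries. Eng fell by 1.64 on the log2 scale (SE 0.42) in graft BM-MSCs against P-SSCs and by 1.69 (SE 0.42) against BM-MSCs (limma, adjusted p = 0.0223 and 0.0391), while P-SSCs and BM-MSCs differed by -0.05 (95% interval -1.05 to 0.96).

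Both calls of Eng were near the threshold. They missed under the GC correction, at -1.01 and -1.13 (limma, adjusted p = 0.0835 and 0.0881). Eng has 57.4% GC, the highest of the 10 genes. It was not among the genes counted as GC-rich above, but in the class with which those were compared. Relative to that class, GC-rich genes were high in the 4 graft libraries and in P-SSC 4. Under the GC correction both differences of Eng moved upwards. The part of GC content in these differences was not tested beyond that correction. The call against P-SSCs was lost without P-SSC 1 or 2+5, at -1.72 and -1.59 (limma, adjusted p = 0.0619 and 0.0753), and the one against BM-MSCs without graft BM-MSC 3 or any one BM-MSC library, at -1.86 to -1.52 (limma, adjusted p = 0.0619 to 0.157).

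Of 5 receptors of the same signalling family, Tgfbr2 and Acvrl1 were lower in the graft than in P-SSCs, and none of the 5 passed the test in graft BM-MSCs against BM-MSCs. Tgfbr2, the type II receptor for TGF-beta, was at 2087, 944, 1245 and 2650 in graft BM-MSCs, 1576, 1057 and 1391 in BM-MSCs, and 6870, 4160 and 17589 in P-SSCs. Both marrow groups overlapped below P-SSCs. Its log2 difference was -2.32 ± 0.49 for graft BM-MSCs against P-SSCs and 2.59 ± 0.53 for P-SSCs against BM-MSCs (limma, adjusted p = 0.00840 and 0.00977). Acvrl1, the type I receptor ALK1, fell by 2.49 (SE 0.42) in graft BM-MSCs against P-SSCs (limma, adjusted p = 0.00216), whereas Tgfbr1, Tgfbr3 and Bmpr2 did not pass in any comparison, with log2 differences of -1.98, 0.03 and -0.97 from P-SSCs.

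Mcam encodes CD146, an adhesion molecule of vessel-associated cells. Mcam (chromosome 9, 44134469-44142727, plus strand) had no read in any of the 4 graft libraries, was at 313 and 221 in BM-MSC 1 and 2+4 but at 0 in BM-MSC 3, and was at 372, 967 and 393 in P-SSCs. The P-SSC mean was at least 191-fold above the limit of detection of the graft libraries (3 reads per library). The test called this difference (limma, adjusted p = 0.00684), and the call was lost with a term for the GC split (limma, adjusted p = 0.129). Against BM-MSCs it was not called (limma, adjusted p = 0.109), but it was without BM-MSC 3 (limma, adjusted p = 0.00945) and with DESeq2 on all libraries (adjusted p = 6.76e-06). The promoter of Mcam was the most GC-rich of those shown above.

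Of the genes tested, 951 (6.97%) were at 0 in all 4 graft libraries, and of the 4259 genes whose mean in P-SSCs was at least that of Mcam, 79 (1.85%) were. Genes of mural cells, the pericytes and smooth muscle cells of vessels, were read beside Mcam. Cspg4 (NG2) was at 0, 0, 40.3 and 0 in graft BM-MSCs, at 681, 1206 and 653 in BM-MSCs, and at 1094, 1043 and 1000 in P-SSCs. Its log2 difference was -8.69 (SE 1.32) against P-SSCs and -8.33 (SE 1.32) against BM-MSCs (limma, adjusted p = 0.00115 and 0.00562), and the latter call was lost with edgeR at -6.44 (adjusted p = 0.0708). Of 7 mural genes (Myh11, Rgs5, Kcnj8, Abcc9, Notch3, Des, Tagln), 3 passed in graft BM-MSCs against P-SSCs, with Myh11 and Kcnj8 lower and Notch3 higher (18.1% of all genes were called), and 0 passed in graft BM-MSCs against BM-MSCs. At an unadjusted p under 0.05 the latter had 1, Kcnj8 at -6.53. Their summed count was 1459 to 4285 in graft BM-MSCs, 2783 to 6836 in BM-MSCs and 4018 to 6488 in P-SSCs. The part of mural cells in the level of Mcam was not tested. In bulk RNA, fewer cells of a type and less RNA per cell cannot be told apart.

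Endothelial cells use Mcam and Eng, and 5 of their genes were in the table. Cdh5, the cadherin of endothelial junctions, was at 0 in all 7 marrow libraries and at 2.08, 58.6 and 14.5 in P-SSCs, and Tie1 and Emcn were at 0 in graft BM-MSCs and P-SSCs but at 57.4 to 204 and 24.3 to 81.5 in BM-MSCs. Esam, an adhesion molecule of endothelial junctions, was at 0, 0, 0 and 128 in graft BM-MSCs, at 210, 306 and 0 in BM-MSCs and at 235, 334 and 157 in P-SSCs, and like Mcam had no read in BM-MSC 3. The mural gene Myh11 had none there either, at 373, 1310 and 0 in BM-MSCs and 0, 94.4, 0 and 0 in graft BM-MSCs. The other mural genes listed had reads in BM-MSC 3, but Tagln was under the limit of 3 reads there, at 1.97. Acta2, from the other stem cell markers below, was at 2363, 3905 and 1.97 in BM-MSCs and 3323, 0, 0 and 1416 in graft BM-MSCs. The sum of the 5 endothelial genes was 0 to 275 in graft BM-MSCs, 217 to 534 in BM-MSCs and 178 to 392 in P-SSCs. Its part in the level of Mcam was not tested. Red cell RNA was in the marrow libraries, where 5 red cell genes summed to 33752 to 125078 in BM-MSCs and 838 to 12621 in graft BM-MSCs, against 114 to 869 in P-SSCs, and 5 Schwann cell genes summed to 551 to 1562 in graft BM-MSCs, 1812 to 2090 in BM-MSCs and 880 to 7756 in P-SSCs. Their part in the members' levels was not tested.

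Nes encodes nestin, an intermediate filament protein whose reporter marks stromal cells near vessels. Nes (chromosome 3, 87971078-87980451, plus strand) was at 89.8, 0, 0 and 0 in graft BM-MSCs, at 1.04, 0 and 4.93 in BM-MSCs, and at 38.4, 1.27 and 149 in P-SSCs. Only graft BM-MSC 1, BM-MSC 3, P-SSC 1 and P-SSC 4 were above the limit of 3 reads. No difference passed the test, and the 95% interval for graft BM-MSCs against P-SSCs reached from -7.19 to 1.30 on the log2 scale. Vim, with which nestin forms filaments, was abundant in all libraries and lower in marrow. It was at 5861 to 10674 in graft BM-MSCs, 12014 to 12926 in BM-MSCs and 41075 to 61552 in P-SSCs, with differences of -2.58 ± 0.22 and 2.04 ± 0.24 in the comparisons that involve P-SSCs (limma, adjusted p = 4.45e-05 and 0.000342). Lama4, a laminin chain of vessel walls that CD146 binds, followed the same order, with -2.71 ± 0.34 and 2.16 ± 0.37 (limma, adjusted p = 0.000364 and 0.00317).

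Ctsk encodes cathepsin K. Ctsk (chromosome 3, 95499256-95509362, plus strand) was at 8925, 5370, 5010 and 9680 in graft BM-MSCs, at 5411, 5038 and 3375 in BM-MSCs, and at 7369, 8116 and 5001 in P-SSCs. All groups overlapped and no difference passed the test, with log2 differences of 0.05 (95% interval -0.62 to 0.73), 0.62 (-0.05 to 1.29) and 0.57 (-0.15 to 1.28) for the graft minus P-SSCs, the graft minus BM-MSCs and P-SSCs minus BM-MSCs. Osteoclast genes were measured beside it, 3 of which were in the table and ran in different directions. Mmp9, a protease of osteoclasts and myeloid cells, was at 979 to 1697 in graft BM-MSCs, 1531 to 3877 in BM-MSCs and 0, 0 and 5.82 in P-SSCs. Calcr, the calcitonin receptor, was at 0 in all 7 marrow libraries and at 44.7 to 71.3 in P-SSCs, and Acp5 was at 1.69 to 106 in graft BM-MSCs, 290 to 900.5 in BM-MSCs and 265 to 333 in P-SSCs. The part of osteoclasts in the level of Ctsk was not tested. Cst3, the secreted inhibitor of cathepsins, was at 58944 to 159490 in graft BM-MSCs and 131236 to 183654 in BM-MSCs, and was lower in P-SSCs than in BM-MSCs at 37387 to 57532 (-1.61 ± 0.38; limma, adjusted p = 0.0231). That call was lost without any one of these 6 libraries, at -1.73 to -1.42 (limma, adjusted p = 0.0564 to 0.101), and under the GC correction.

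**Figure D3:**
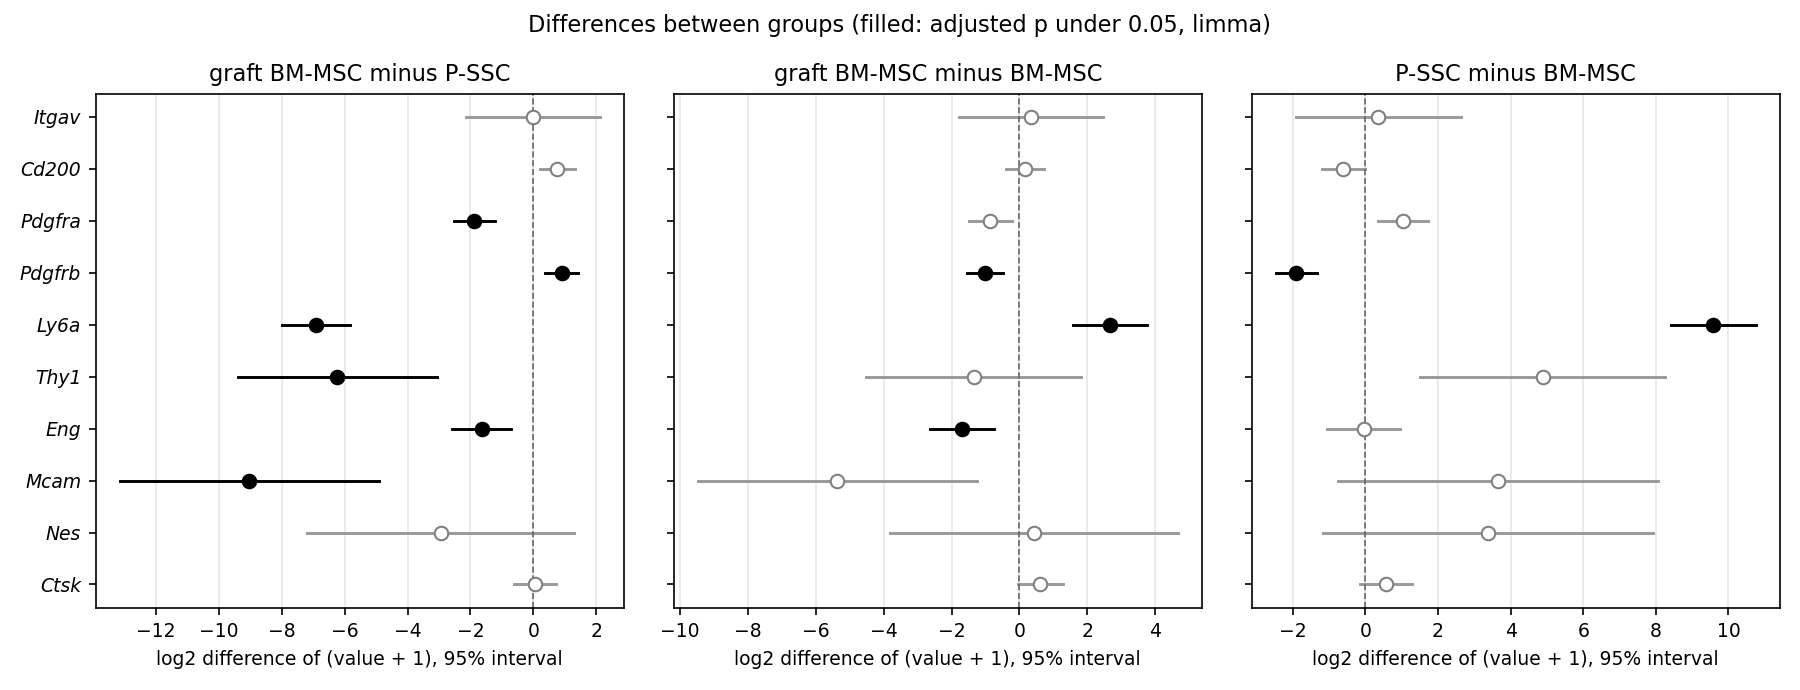
Log2 difference of (value + 1) between groups for each of the 10 genes in the 3 comparisons, with 95% intervals from limma. Filled points passed the test, 6 on the left, 3 in the middle and 2 on the right, and the intervals of Nes, Mcam, Thy1 and Itgav are the widest.

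Levels of different genes were compared as RPKM, the reads of a gene scaled by its exon length and by the reads of the library. In BM-MSCs Pdgfrb was first at 308 ± 25.5 (SD, n = 3), followed by Ctsk at 160 ± 38.6, Cd200 at 41.8 ± 10.8, Eng at 25.5 ± 4.25 and Pdgfra at 25.0 ± 7.22, of which only Eng and Pdgfra overlapped. Ly6a, Mcam, Itgav and Thy1 came next, between 4.11 and 0.70, each overlapping its neighbour, and Nes was last at 0.017.

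In P-SSCs Ly6a was first at 2876 ± 819, without overlap with Ctsk at 213 ± 32.1, and ranked above at least 99.9% of the genes of its library. Pdgfrb at 76.5 ± 19.4 and Pdgfra at 48.2 ± 20.5 overlapped, as did Pdgfra with Cd200 at 24.7 ± 4.57 and Cd200 with Eng at 22.3 ± 3.07. Thy1 at 15.4 ± 1.92 and Mcam at 8.0 ± 3.89 followed without overlap, and Itgav and Nes were last at 2.23 and 0.51.

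In graft BM-MSCs Ctsk at 328 ± 117 and Pdgfrb at 203 ± 49.1 (n = 4) were first and overlapped, and Cd200 at 59.2 ± 8.96 apart from Pdgfrb. Ly6a at 36.6 ± 16.2 stood in the fourth place, Pdgfra at 17.4 ± 2.14 in the fifth and Eng at 11.3 ± 5.24 in the sixth, and from Cd200 on each gene overlapped the next. Itgav at 2.22 ± 1.69 and Thy1 at 0.91 ± 1.52 were low, Nes was at 0.25 and Mcam at 0. Itgav, which encodes a sorting antigen, was thus in the seventh to ninth place of the 10 genes in every group.

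**Figure D4:**
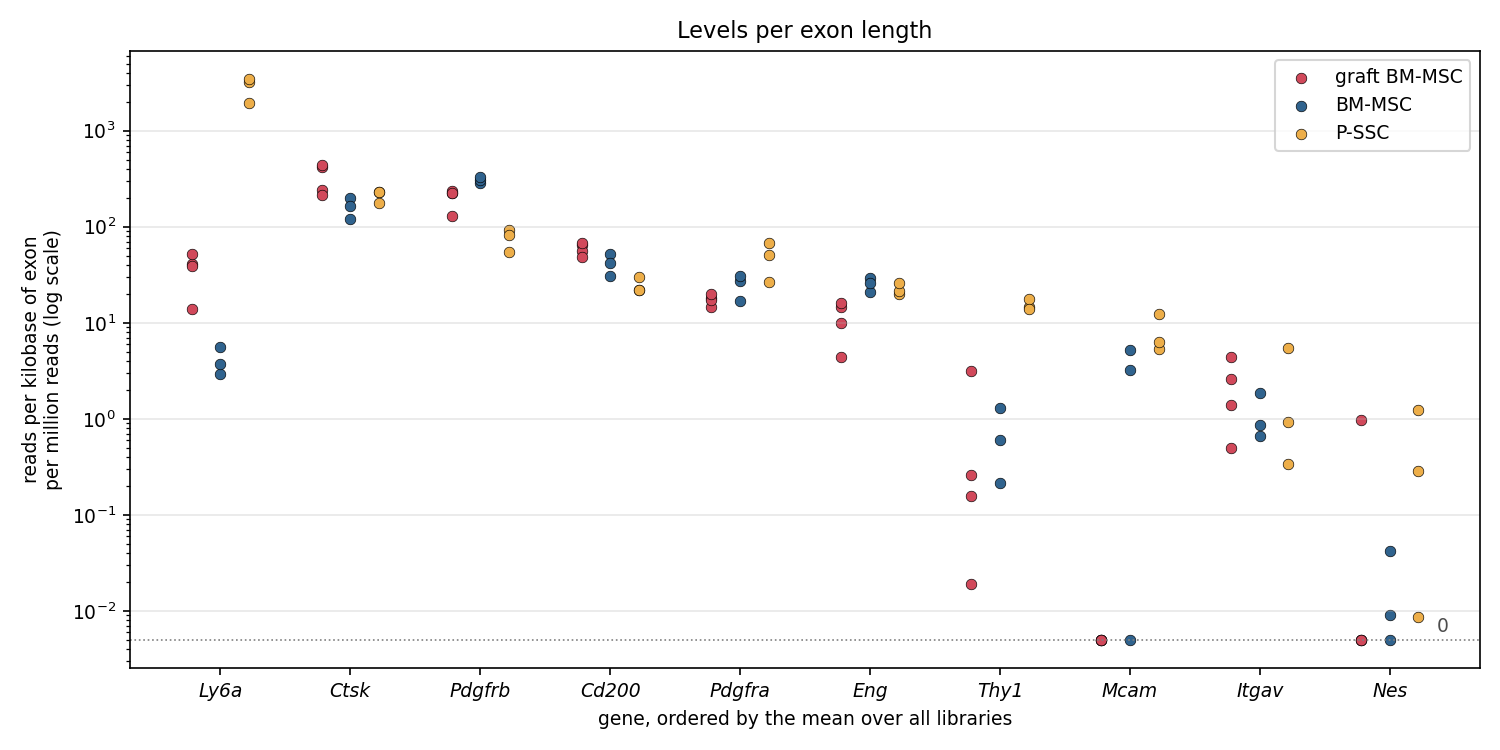
RPKM of each gene on a log scale, with a point for each of the 10 libraries. Libraries at 0 are drawn on the dotted line. Ly6a is at 1942 or more in the 3 P-SSC libraries and at most 52.4 elsewhere, and Mcam is at 0 in all 4 graft libraries and in BM-MSC 3.

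The list of binding partners and relatives that these values come from had 18 genes, of which 16 were tested. Of these, 7 passed in graft BM-MSCs against P-SSCs (1 higher, 6 lower, median log2 difference -2.15), 1 in graft BM-MSCs against BM-MSCs (Itgb5, higher, median -0.42), and 6 in P-SSCs against BM-MSCs (5 higher, 1 lower, median 1.48). Over all genes tested, 18.1%, 7.67% and 9.15% were called, with medians of -0.47, -0.53 and 0.00. The 1 partner gene called against BM-MSCs, 6.25% of those tested, was thus near the share of all genes.

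Other genes used to mark skeletal stem cells were read in the same way. Of 15 tested, 6 passed in graft BM-MSCs against P-SSCs (4 higher, 2 lower), 2 in graft BM-MSCs against BM-MSCs (1 each way) and 5 in P-SSCs against BM-MSCs (1 higher, 4 lower), with medians of -0.68, -0.18 and 0.67, where 18.1%, 7.67% and 9.15% of all genes were called. Lepr, the leptin receptor, was at 22640 to 37374 in graft BM-MSCs, 24593 to 45208 in BM-MSCs and 210 to 1034 in P-SSCs. It was 40.8-fold higher in graft BM-MSCs than in P-SSCs (log2 difference 5.63 ± 0.49; limma, adjusted p = 4.72e-05). Grem1, a BMP antagonist, was at 1515 to 2565 in graft BM-MSCs, 1768 to 2830 in BM-MSCs and 36.4, 0 and 0 in P-SSCs, with differences of 9.27 ± 1.10 and -9.40 ± 1.17 in the comparisons with P-SSCs (limma, adjusted p = 0.000264 and 0.000534).

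Foxc1, a transcription factor of marrow stroma, was at 5795, 3242, 5476 and 4028 in graft BM-MSCs, at 263, 392 and 294 in BM-MSCs and at 9.35, 5.10 and 128 in P-SSCs. The groups did not overlap, and graft BM-MSCs were above both others, by 3.85 ± 0.88 against BM-MSCs (limma, adjusted p = 0.0269) and 7.81 ± 0.88 against P-SSCs (limma, adjusted p = 0.000196). The call against BM-MSCs was lost without graft BM-MSC 1, 3 or 4 or any one BM-MSC library, at 3.73 to 4.02 (limma, adjusted p = 0.0508 to 0.0964), with edgeR at 3.86 (adjusted p = 0.0617), and with the term for the GC split at -0.17 (limma, adjusted p = 0.956). Ebf3, a factor of the same cells, was 5.70 ± 0.77 higher than in P-SSCs (limma, adjusted p = 0.000571).

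Tek encodes Tie2, the angiopoietin receptor, which endothelial cells use and which is an exclusion marker in some skeletal stem cell gates. Tek had no read in 6 of 7 marrow libraries and 1 read in BM-MSC 1, and was at 6869, 4820 and 3254 in P-SSCs, at least 1649-fold above the limit of detection in graft BM-MSCs (limma, adjusted p = 3.18e-05). In the same P-SSC libraries Cdh5 was at most 58.6, Tie1 and Emcn were at 0, and Egfl7 was at 0, 0 and 6.79. Esam was at 235, 334 and 157 in them. The part of endothelial cells in the level of Tek was not tested.

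**Figure D5:**
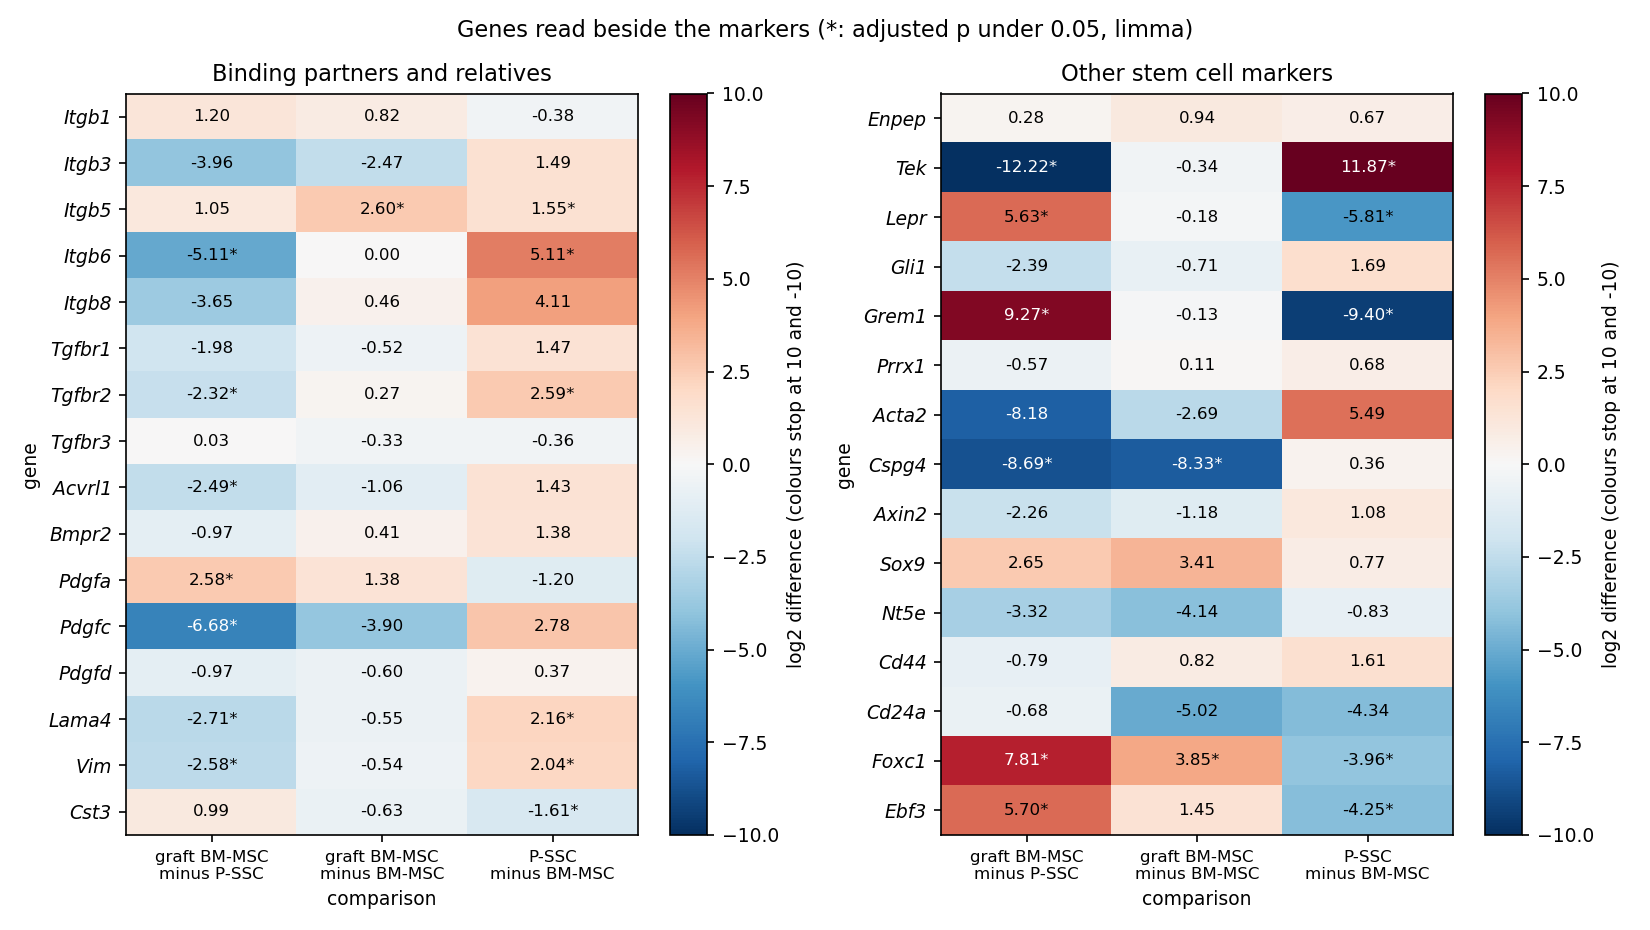
Log2 difference of (value + 1) for the 16 tested partner genes (left) and the 15 tested other stem cell markers (right) in the 3 comparisons, where colour and number give the difference and an asterisk marks an adjusted p under 0.05. Tek, Grem1, Lepr, Foxc1 and Ebf3 pass in both comparisons that involve P-SSCs, and Itgb5, Cspg4 and Foxc1 in graft BM-MSCs against BM-MSCs.

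The genes whose pattern was most like each member were sought among 9545 other genes with a mean of at least 100, by Pearson's r of log2 values over the 10 libraries, whose GC dependence follows the groups in all but P-SSC 4. For Ly6a they were S100a6 (r = 0.99), Naaa (0.97) and Crip1 (0.97), all highest in P-SSCs. For Pdgfra they were Srgap2 (0.96), Mmut (0.95) and Spop (0.94), for Pdgfrb Dlx5 (0.96), Myo18a (0.95) and H2-Q4 (0.95), and for Thy1 Abca2, Lefty1 and Pxn (0.96 each). Dlx5, a factor of the osteoblast lineage, was at 752, 1790 and 322 on average in graft BM-MSCs, BM-MSCs and P-SSCs, the same order as Pdgfrb. Eng was most like Lrrc41 (0.98), Arfgap2 (0.97) and Clip2 (0.97), and Mcam most like Crispld1 (0.99), P2rx1 (0.99) and Armh4 (0.98), which had a mean of 0 in graft BM-MSCs as Mcam did. For Cd200 they were Casp4 (0.94), Sult1a1 (0.91) and Cxcl9 (0.91). Itgav was most like Susd6 (0.93), H1f0 (0.91) and Itpripl2 (0.89), and Ctsk most like Sat1 (0.88), Asah1 (0.87) and Tm4sf1 (0.86). Nes was most like Tulp4 (0.86), Dnah2 (0.85) and Spock2 (0.85). Their means were lowest in BM-MSCs and highest in P-SSCs, as for Nes. The groups of Itgav, Ctsk and Nes themselves overlapped in every comparison.

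Within the libraries in which GC-rich genes were low (3 BM-MSC and 2 P-SSC), 3 of the 10 genes passed in P-SSCs against BM-MSCs. In that fit 2040 of the 13644 genes tested were called, against 1248 with all libraries. The 3 genes were Ly6a at 9.92, Pdgfrb at -1.89 and Thy1 at 5.03 (limma, adjusted p = 0.00150, 0.0113 and 0.0221). The libraries in which GC-rich genes were high were the 4 graft libraries and 1 P-SSC library. With a term for this split, the graft minus P-SSC difference is that from P-SSC 4 alone, which is assumed to vary like the other libraries. It was -1.89 for Pdgfra, -6.23 for Ly6a, 0.93 for Pdgfrb, -5.94 for Thy1, -1.70 for Eng and -8.62 for Mcam, of which limma called Pdgfra and Ly6a (adjusted p = 0.0330 and 0.00156).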

How the data were processed

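RNA was sequenced by poly-A selection from 10 libraries of sorted mouse cells, and the kit could be directional or not per the labels, so that overlapping antisense genes cannot be told apart. The authors deposited 1 signal value per gene and library, a read count divided by a DESeq2 size factor, for 15078 genes. The submitters' processing notes name FastQC 0.11.5, cutadapt 1.15, STAR 2.5, featureCounts of Subread 1.4.6 and DESeq2 1.26.0. The study's methods and these notes differ on the genome build, and the file has no coordinates. Positions, exon lengths and GC content came from GENCODE M21 (GRCm38) by Ensembl ID, which found 15052 genes.

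Values were whole multiples of the value of 1 read, within 0.05 of a whole number, for 100% of values, which gave the reads. Values were analysed as log2(value + 1), so fold changes of low genes can be understated or overstated. In graft BM-MSCs against P-SSCs, Thy1 had a log2 difference of -6.24 by limma, beyond -4.46 by edgeR and -4.57 by DESeq2. Mcam had -9.03 by limma, short of -12.2 by edgeR and -12.0 by DESeq2. The 13644 genes averaging 10 or more were fitted with limma 3.58.1 (R 4.3.3) with 1 mean per group over all 10 libraries (7 residual degrees of freedom), and p-values are two-sided, with Benjamini-Hochberg adjustment over these genes and a threshold of 0.05. All 10 members passed the filter. Ratios were compared by exact permutation (scipy 1.17.1).

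The alternatives changed the pseudocount (0.1, 5), the filter (none, 100), the scaling (median centring, quantile) or the threshold (0.01), fitted just the pair of groups compared, left out each library, blocked on the replicate number, or used edgeR 4.0.16 and DESeq2 1.42.0 on the recovered reads, a loess correction for GC (span 0.3) or a term for the split by GC dependence. The members and lists were chosen with earlier results of these data known. Genes named are the members, the genes of the lists, and for each member the 3 genes of most similar pattern. The scripts were tested on simulated data. Replicates differed by far more than sampling noise (chi-square per degree of freedom 72.2 to 380). Promoters of Ly6a, Thy1 and Pdgfrb and the listed genes Cd200r1, Ngfr and Mx1 were not analysed here.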

Additional observations from a re-analysis of the deposited data

Results flagged for a closer look

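In a group of 4 libraries, a library was taken as standing apart when its gap to the nearest of the others was over 0.829 of the whole range (Dixon's test at 95%). Of 12 sets of values tested in graft BM-MSCs, the 10 genes and both ratios, 2 met this. For normally distributed values chance gives about 1 in 20, but the genes were tested as counts, not on the log scale. Mcam, at 0 in all 4 libraries, could not meet it. Thy1 was at 148 in graft BM-MSC 3 and at most 11.2 in the other graft libraries, with a gap of 0.930 of the range. That library also had the highest sum of hematopoietic genes in the graft, 4850, while Cd3g was at 3.02 and Lck at 0 in it, and the part of these cells in the value was not tested. Without it, the log2 difference of Thy1 between graft BM-MSCs and P-SSCs was -7.42. Nes was at 89.8 in graft BM-MSC 1 and at 0 in the other 3, with a gap of 1 of the range. With 3 values tied at 0 the gap is 1 for any remaining value above 0. This flag therefore does not measure how far that library stands apart.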

How the results depend on the processing

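The calls of Ly6a in both comparisons with P-SSCs, and of Pdgfra in graft BM-MSCs minus P-SSCs, held in the 20 alternatives run for each. The members' calls in graft BM-MSCs minus P-SSCs went from 6 to 3 at an adjusted p under 0.01 and without P-SSC 2+5, and to 2 with a term for the GC split (partner genes from 7 to 4). Leaving out a library with a single sample number (a single-sample library below) gave 4 to 6. The number of mice in each of these is not stated. In graft BM-MSCs minus BM-MSCs the members' calls went from 3 to 1 with edgeR, with the GC correction, without BM-MSC 1 and without BM-MSC 2+4 (1 to 3 leaving out a single-sample library). They went to 0 at an adjusted p under 0.01 and with the GC term, where limma had 5 and 2 members at an unadjusted p under 0.05, while DESeq2 called 4. With that term 0 partner genes and 0 other markers passed (2 and 1 unadjusted by limma), with edgeR 0 other markers (6 unadjusted), and at an adjusted p under 0.01 or without BM-MSC 2+4, 1 other marker. Fitting just these groups called 2 partner genes, and leaving out a single-sample library 1 to 2 in either list. edgeR called 4 partner genes in graft BM-MSCs minus P-SSCs, and DESeq2 4 members in P-SSCs minus BM-MSCs. The causes were not tested.

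Directions turned for log2 differences that were not called, given here with their range on leaving out a single-sample library. In graft BM-MSCs minus P-SSCs, Itgav was 0.33 with the GC correction (-0.47 to 1.00) and Ctsk -0.021 with median centring (-0.16 to 0.21). In graft BM-MSCs minus BM-MSCs, Itgav was -2.71 with the GC term (-0.12 to 0.89), Cd200 -0.0044 with centring (-0.066 to 0.30), Thy1 1.25 with quantile normalization, 0.050 with edgeR and 0.053 with DESeq2, and Nes -0.60 with a pseudocount of 0.1, -0.17 without BM-MSC 2+4 and -3.56 with the GC term (-1.20 to 1.11). In P-SSCs minus BM-MSCs, Itgav was -0.66 with the GC term and within the libraries low in GC-rich genes (-0.66 to 0.75), and Eng 0.12 without BM-MSC 2+4 (-0.22 to 0.034). Without BM-MSC 2+4, the ratio Pdgfra over Pdgfrb in graft BM-MSCs minus BM-MSCs was -0.11 (0.025 to 0.29) and Itgav over Cd200 -0.16 (-0.21 to 0.67). The latter ranged from -1.17 to 0.39 in graft BM-MSCs minus P-SSCs and from -0.21 to 1.29 in P-SSCs minus BM-MSCs.

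Blocking on the replicate number left 2 residual degrees of freedom. With this block limma called 2 members, 1 partner gene and 2 other markers in graft BM-MSCs minus P-SSCs, 0 of each in graft BM-MSCs minus BM-MSCs (5, 1 and 3 at an unadjusted p under 0.05), and 1, 0 and 1 in P-SSCs minus BM-MSCs (4, 6 and 6 unadjusted). Itgav was then 0.028, -0.64 and -0.67, and Thy1 0.25 in graft BM-MSCs minus BM-MSCs. Same-numbered libraries did not deviate together over all genes (correlations -0.02 to 0.03 over 5 pairs). With groups this small, such correlations cannot tell whether any of these libraries came from the same mouse.

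Over all genes, the calls in the 3 comparisons (2464, 1046 and 1248) became 269, 3 and 54 with the block, 1531, 316 and 619 with edgeR, and 1332, 305 and 794 at an adjusted p under 0.01. The GC term left 1081 and 40 in the graft comparisons, DESeq2 called 1944 in graft BM-MSCs minus BM-MSCs, and the libraries low in GC-rich genes gave 2040 in P-SSCs minus BM-MSCs. Leaving out a single-sample library gave 1583 to 3005 and 477 to 1043 in the graft comparisons, and leaving out BM-MSC 2+4 gave 476 in the latter. Nes had 0 to 5 reads in 6 of the marrow libraries, and the parts of depth and of low expression in this were not tested.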
